A study of Homo sapiens with 6 samples.

Results

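The proteasome genes of PC3 cells are described here: the subunits, activators and assembly factors whose symbols are PSM, then 1 of the letters A to G, then a number. Of the 19775 genes that single-gene probe sets name on the array, 42 had such a symbol, with 81 probe sets. For 41 of them, with 69 probe sets, at least 1 probe set averaged log2 4 or more across the 6 arrays. PSMA8, a testis subunit, was below that filter. RefSeq lists 48 symbols of this form. PSMA6 and PSME2 had only probe sets that the annotation assigns to several genes, and PSMB11, PSMC5, PSMD7 and PSMD13 were not analysed here.

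PC3 is an established human prostate cancer line. Its cells, with no other genetic change named in the labels, received scrambled siRNA, an siRNA pool against VEGF-C or an siRNA pool against NRP-2, and total RNA was taken after 72 h. Each of the 3 groups had 2 Affymetrix HG-U133 Plus 2.0 arrays. VEGF-C is a lymphatic growth factor and NRP-2 (neuropilin-2) is one of its co-receptors. The labels name the pools of VEGF-C and NRP-2 siRNA from different suppliers, so an effect of the targeted gene and one of the supplier cannot be told apart. The labels do not state separate cultures for the arrays of a group. The p-values below set differences between groups against the spread of arrays within groups, which may therefore be technical variation alone.

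The proteasome degrades proteins that carry ubiquitin chains. Its 20S core is a barrel of alpha and beta rings, and 3 beta subunits hold the peptide-cutting sites inside it: PSMB6 (beta1, caspase-like), PSMB7 (beta2, trypsin-like) and PSMB5 (beta5, chymotrypsin-like). The 19S particle caps the barrel, with an ATPase ring that unfolds the substrate and a lid that removes ubiquitin. In cells exposed to interferon gamma, PSMB9, PSMB10 and PSMB8 can replace beta1, beta2 and beta5 to form the immunoproteasome, which cuts peptides for display on MHC class I. Most proteasome genes are known to be induced together by the transcription factor NRF1 (NFE2L1) when the proteasome is inhibited.

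The medians of the 6 arrays spanned 0.07 log2 units. VEGFC stood at 11.81 and 11.80 with scrambled siRNA, 8.46 and 7.27 with VEGF-C siRNA and 11.99 and 11.67 with NRP-2 siRNA. NRP2 stood at 4.77 and 4.92, 5.51 and 6.01, and 3.41 and 2.81 in the same order, so each target was lowest under its own siRNA. The epithelial genes KRT8, KRT18 and EPCAM had mean values of 12.04, 13.92 and 14.65, against 8.51, 6.46 and 2.45 for the luminal prostate genes TMPRSS2, KLK3 and KLK2. Markers of other cell types were mixed. The leukocyte genes PTPRC, CD3E and CD14 stood at 3.21, 2.15 and 1.82 but LYZ at 5.69 (4.70 to 7.41 over the arrays). The endothelial genes VWF and CDH5 stood at 1.99 and 2.40 but PECAM1 at 9.83 (9.17 to 10.93), and the fibroblast genes DCN and LUM at 2.999 and 3.21 but COL1A1 at 10.24 and COL3A1 at 7.996. The part of these markers in the results was not tested. A set of mitotic genes (17 of 18 listed were measured) differed between group means and between arrays of the same group. All 17 had higher means with VEGF-C and NRP-2 siRNA than with scrambled siRNA, against 49.3% and 51.8% of all genes tested. Their median log2 differences were 1.27 and 0.96. Both VEGF-C arrays were above both scrambled arrays in 12 of them, against 26.8% of all genes. Both NRP-2 arrays were so in 1, against 25.3%. The median position of the set, relative to each gene's mean over all arrays, was 0.06 and -1.57 on the scrambled arrays, 0.90 and 0.17 on the VEGF-C arrays and 0.66 and -0.33 on the NRP-2 arrays. The part of this set in the results on proteasome genes was not tested, and in bulk RNA fewer cells of a kind and less RNA per cell cannot be told apart.

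Differences below are differences between group means of log2 values, given with the standard error (SE) that limma estimated over 11131 genes and all 6 arrays. A gene was called where its p, adjusted by Benjamini-Hochberg, was under 0.05. None of the genes tested was called in any comparison, proteasome genes included (0 of 11131, 0%). With no filter on low values, 1 gene, not a proteasome gene, was called for VEGF-C against scrambled siRNA and 1 for NRP-2 against VEGF-C siRNA. Counts at an unadjusted p under 0.05, counts above 0 and counts of genes whose arrays do not overlap are therefore given as descriptions beside the same share of all genes. Those shares were taken in this fit only, not under the alternative settings.

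By their brightest probe sets, proteasome genes stood above scrambled siRNA nearly throughout with VEGF-C siRNA, by small amounts. Among the 18 genes with several probe sets past the filter, all probe sets had the same direction in 11. Of the 41 genes, 38 had a difference above 0, against 49.3% of all genes, and their median difference was 0.20, against -0.0044 for all genes tested. In 28 genes both VEGF-C arrays were above both scrambled arrays, against 26.8% of all genes, and in 0 genes were they both below, against 26.6%. At an unadjusted p under 0.05, 4 genes were higher (PSMB9, PSMB10, PSMC3 and PSMD14), against 6.95% of all genes, and 0 were lower, against 7.8%. The differences ran from -0.03 for PSMA4 to 0.78 for PSMB9, and the lowest adjusted p of a proteasome gene was 0.238. Without the 3 immunoproteasome beta subunits and the interferon-induced activator PSME1, the median of the other 37 genes was 0.16. With the mean of all probe sets of a gene, the median of the 41 genes was 0.135.

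With NRP-2 siRNA the genes were more spread, and the 2 arrays of the group stood apart. Of the 41 genes, 33 had a difference above 0 from scrambled siRNA, against 51.8% of all genes, with a median of 0.13 against 0.01 for all genes. Both NRP-2 arrays were above both scrambled arrays in 15 genes, against 25.3% of all genes, and below them in 1, PSMB5, against 24.4%. At an unadjusted p under 0.05, 1 gene was higher (PSMD14), against 6.43% of all genes, and 1 was lower (PSMB5), against 6.85%. With the mean of all probe sets of a gene, 6 were higher and 1 lower, a setting for which the share of all genes was not taken. On NRP-2 array 1, 36 of the 41 proteasome genes read higher than on NRP-2 array 2, against 50.1% of all genes. Between the scrambled arrays the corresponding count was 30 of 41, against 49.85% of all genes. Between the VEGF-C arrays it was 19 of 41, against 48.96%. The median position of the proteasome genes was 0.14 on NRP-2 array 1 and -0.07 on NRP-2 array 2, between -0.13 and -0.07 on the scrambled arrays, and 0.08 and 0.09 on the VEGF-C arrays. Without NRP-2 array 1 the median difference from scrambled siRNA was 0.0064, with 21 of 41 genes above 0, and without NRP-2 array 2 it was 0.27.

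**Figure D1:**
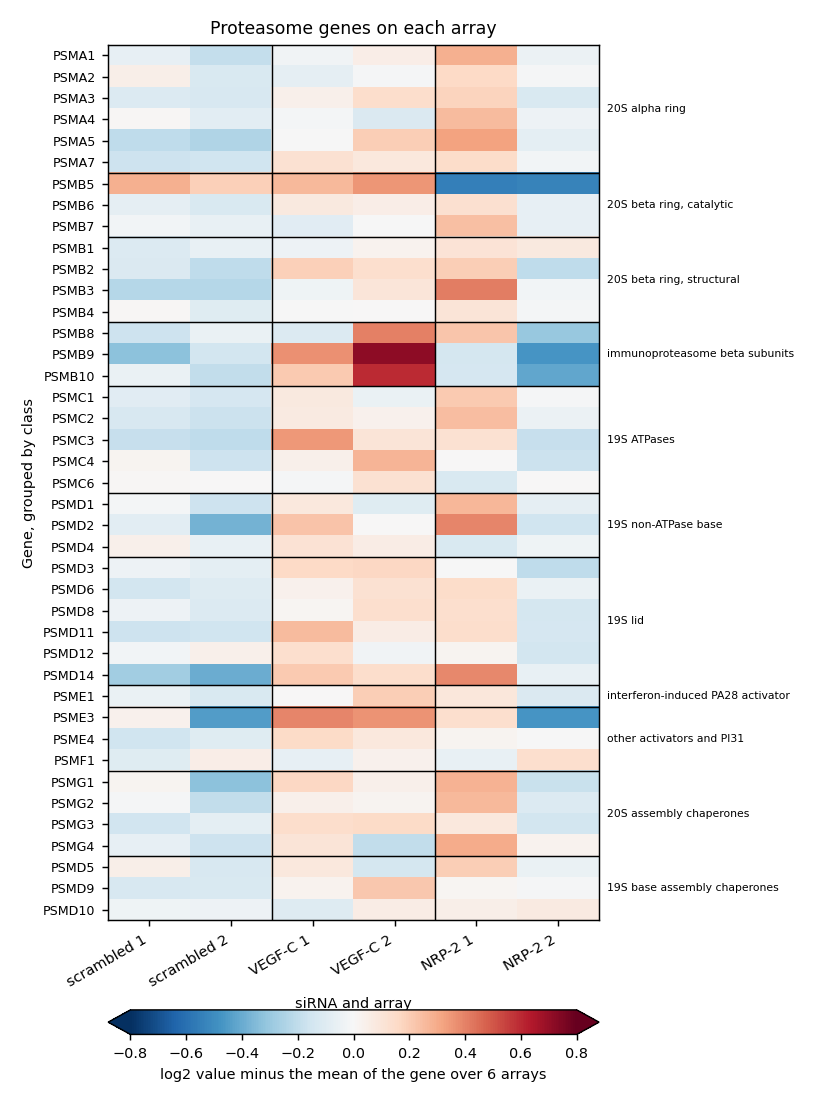
Colour gives the log2 value of each proteasome gene on each array minus that gene's mean over the 6 arrays, with arrays in columns and genes in rows by class. PSMB5 is the only gene dark blue on both NRP-2 arrays, PSMB9 and PSMB10 are reddest on VEGF-C array 2, and most genes are redder on NRP-2 array 1 than on NRP-2 array 2.

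Between the 2 knockdowns, 17 of the 41 genes were higher with NRP-2 siRNA than with VEGF-C siRNA, against 52.7% of all genes, and the median difference was -0.04, against 0.02 for all genes. Both NRP-2 arrays were above both VEGF-C arrays in 1 gene, PSMB1, against 24.1% of all genes, and below them in 10 genes, against 22.4%. At an unadjusted p under 0.05, 0 genes were higher, against 9.54% of all genes, and 3 were lower (PSMB5, PSMB9 and PSMB10), against 8.66%. The count of higher genes depended on the probe sets used: with the mean of all probe sets of a gene 4 were higher and 3 lower, and both NRP-2 arrays were above both VEGF-C arrays in 7 genes and below them in 10. Shares of all genes were not taken with that mean, so these counts have no background of their own. The sign of this median rested on the NRP-2 arrays: it was -0.13 without NRP-2 array 1 and 0.0695 without NRP-2 array 2.

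PSMB5 is the chymotrypsin-like subunit and the main target of the drug bortezomib. Among the brightest probe sets of proteasome genes, it differed most between NRP-2 and scrambled siRNA. Its single probe set read 12.44 and 12.35 with scrambled siRNA, 12.41 and 12.51 with VEGF-C siRNA, and 11.61 and 11.62 with NRP-2 siRNA. The group means were 12.40 ± 0.07, 12.46 ± 0.07 and 11.62 ± 0.01 (SD, n = 2). The NRP-2 arrays lay below the other 4, and the scrambled and VEGF-C arrays overlapped. PSMB5 was 1.72-fold lower with NRP-2 siRNA than with scrambled siRNA (log2 difference -0.78, SE 0.12, limma's unadjusted p = 0.000826, adjusted p = 0.213), which put it at rank 38 of 11131 genes by p. Against VEGF-C siRNA it was 1.80-fold lower (-0.85, SE 0.12, limma's adjusted p = 0.104, rank 59). Leaving out any 1 array kept these differences between -0.83 and -0.73 and between -0.89 and -0.80. With VEGF-C siRNA it differed from scrambled siRNA by 0.07 (SE 0.12).

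The other catalytic subunits did not show this pattern. PSMB6, the caspase-like subunit, read 13.04 and 12.99 with scrambled siRNA, 13.19 and 13.17 with VEGF-C siRNA, and 13.24 and 13.05 with NRP-2 siRNA. Its differences from scrambled siRNA were 0.16 and 0.13 (SE 0.13), with both knockdown groups above both scrambled arrays. PSMB7, the trypsin-like subunit, read 12.96 and 12.92, 12.90 and 12.98, and 13.23 and 12.92, so its groups all overlapped, and its differences were -0.00 and 0.13 (SE 0.15). Whether PSMB5 differed from PSMB6 and PSMB7 in its response was not tested.

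The 2 promoter windows in RefSeq (GRCh38.p14), each running from 250 bases before to 50 bases after a transcript start of PSMB5, lie on the minus strand of chromosome 14 at chr14:23035171-23035470 and chr14:23034851-23035150. They are shown because PSMB5 stood apart from the other core genes. Capitals mark matches, on either strand, to the antioxidant response element TGANNNNGC, which NRF1 and NRF2 bind, to CCAAT, or to the gamma-activated site TTCNNNGAA. The first window held 2 matches to TGANNNNGC and 1 to CCAAT, and the second held 1 to TGANNNNGC and 2 to TTCNNNGAA, of which 1 overlaps the TGANNNNGC match.
PSMB5 first window: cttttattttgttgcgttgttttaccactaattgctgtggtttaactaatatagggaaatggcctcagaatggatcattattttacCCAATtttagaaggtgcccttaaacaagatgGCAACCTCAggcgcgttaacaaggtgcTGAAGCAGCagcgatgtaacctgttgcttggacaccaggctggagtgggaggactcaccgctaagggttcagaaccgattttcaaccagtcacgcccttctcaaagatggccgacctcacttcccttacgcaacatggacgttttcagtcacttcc
PSMB5 second window: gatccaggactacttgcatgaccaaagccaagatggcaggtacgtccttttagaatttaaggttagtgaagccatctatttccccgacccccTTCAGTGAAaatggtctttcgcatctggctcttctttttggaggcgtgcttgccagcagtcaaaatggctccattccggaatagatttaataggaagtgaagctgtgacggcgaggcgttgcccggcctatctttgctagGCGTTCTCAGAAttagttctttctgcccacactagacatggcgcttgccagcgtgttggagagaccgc

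All 3 immunoproteasome subunits had their highest mean with VEGF-C siRNA, without overlap between arrays for PSMB9 and PSMB10 and with overlap for PSMB8, and the class median stood 0.53 from scrambled siRNA under the VEGF-C pool and -0.07 under the NRP-2 pool. PSMB9 (beta1i) read 8.88 and 9.06 with scrambled siRNA, 9.58 and 9.92 with VEGF-C siRNA, and 9.07 and 8.74 with NRP-2 siRNA. Both VEGF-C arrays lay above the other 4 arrays. It was 1.71-fold higher with VEGF-C than with scrambled siRNA (0.78, SE 0.19, limma's unadjusted p = 0.0079, adjusted p = 0.238, rank 368 of 11131) and 1.80-fold lower with NRP-2 than with VEGF-C siRNA (-0.85, SE 0.19, limma's adjusted p = 0.134). Leaving out 1 array gave 0.60 to 0.95 for the first of these differences. Its group means were 8.97 ± 0.13, 9.75 ± 0.25 and 8.90 ± 0.23 (SD, n = 2), so NRP-2 and scrambled siRNA differed by less than their spread (-0.07).

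PSMB10 (beta2i) followed the same order of groups. Its probe set read 8.75 and 8.61 with scrambled siRNA, 9.01 and 9.40 with VEGF-C siRNA, and 8.67 and 8.39 with NRP-2 siRNA, again with both VEGF-C arrays above the other 4. It was 1.44-fold higher with VEGF-C than with scrambled siRNA (0.53, SE 0.19, limma's unadjusted p = 0.0339, adjusted p = 0.312), and its difference between NRP-2 and VEGF-C siRNA was -0.68 (limma's adjusted p = 0.173). Both differences depended in size on the VEGF-C arrays: the first was 0.33 without array 2 and 0.72 without array 1, and the second -0.48 and -0.87.

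PSMB8 (beta5i) varied as much within groups as between them. It read 10.75 and 10.87 with scrambled siRNA, 10.81 and 11.32 with VEGF-C siRNA, and 11.14 and 10.62 with NRP-2 siRNA, with all groups overlapping. Its differences from scrambled siRNA were 0.26 and 0.07 (SE 0.25). PSME1, a subunit of the PA28 activator that interferon also induces, read 13.24 and 13.18, 13.30 and 13.49, and 13.39 and 13.18, with the VEGF-C arrays just above the scrambled ones (0.19, SE 0.14). Its partner PSME2 could be read only through a probe set shared with MIR7703, at 13.47 and 13.30, 13.41 and 13.59, and 13.57 and 13.20.

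**Figure D2:**
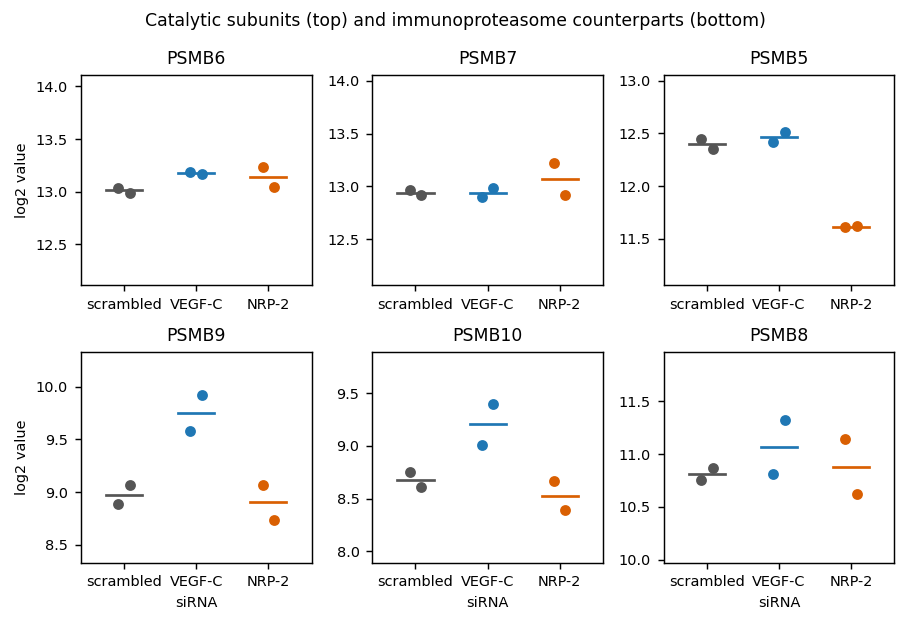
Points are the log2 values of single arrays and lines the means of 2 arrays, by siRNA, for the constitutive catalytic subunits (top row) and the immunoproteasome subunits that replace them (bottom row, same column). Each panel spans 2 log2 units. PSMB5 is lower on both NRP-2 arrays (11.61 and 11.62) than on the other 4, and PSMB9 and PSMB10 are higher on both VEGF-C arrays than on the other 4.

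Other genes of antigen processing were set beside them. The list of transporters, trimming enzymes, class I genes and their regulators had 10 of 12 members measured, with 0 called, a median difference of 0.15 between VEGF-C and scrambled siRNA, 0.00 between NRP-2 and scrambled siRNA and -0.22 between NRP-2 and VEGF-C siRNA. Of the 10, 7 had a difference above 0 with VEGF-C siRNA, against 49.3% of all genes. In 5 of the 10 both VEGF-C arrays were above both scrambled arrays, against 26.8% of all genes, and in 1, the trimming enzyme ERAP2 (-0.26), they were below, against 26.6%. Also below 0 were the regulator NLRC5 (-0.18, SE 0.39) and TAPBP (-0.02, SE 0.16), with overlapping arrays. With NRP-2 siRNA, NLRC5 stood at -0.56 from scrambled siRNA, also with overlap. IRF1, an interferon-induced transcription factor, read 6.70 and 6.99, 7.44 and 7.59, and 7.17 and 7.17 (scrambled, VEGF-C, NRP-2), and was highest with VEGF-C siRNA (difference from scrambled 0.67, SE 0.15, limma's adjusted p = 0.233). TAP1, a peptide transporter whose gene lies head to head with PSMB9, read 10.88 and 10.98, 11.23 and 11.22, and 10.97 and 10.65, also highest on the VEGF-C arrays (difference from scrambled 0.29, NRP-2 minus VEGF-C -0.42, limma's adjusted p = 0.245 for the latter). TAP2, the other transporter subunit, read 9.79 and 9.67, 10.66 and 9.97, and 9.91 and 10.01, and the VEGF-C arrays differed from each other more than the VEGF-C and scrambled means did.

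The RefSeq windows of PSMB9 (chr6:32853942-32854241, plus strand) and TAP1 (chr6:32853655-32853954, minus strand) overlap by 13 bases. They are shown with the window of PSMB10 (chr16:67936801-67937100, minus strand) because these 3 genes were highest on the VEGF-C arrays. Capitals mark, on either strand, the interferon regulatory element (GAAA, any 2 bases, GAAA) in PSMB10 and TAP1, and TGANNNNGC and CCAAT in PSMB9. TAP1 held 2 overlapping matches to this element on the opposite strand in this window and 0 in its second RefSeq window (chr6:32852712-32853011), and PSMB10 held 1 match starting 21 bases before the start. The PSMB9 window held none, which says only that these letters are not in it. PSMB8, whose groups all overlapped, has 2 windows that held 1 match to this element between them. Whether a match goes with a difference was not tested.
PSMB9: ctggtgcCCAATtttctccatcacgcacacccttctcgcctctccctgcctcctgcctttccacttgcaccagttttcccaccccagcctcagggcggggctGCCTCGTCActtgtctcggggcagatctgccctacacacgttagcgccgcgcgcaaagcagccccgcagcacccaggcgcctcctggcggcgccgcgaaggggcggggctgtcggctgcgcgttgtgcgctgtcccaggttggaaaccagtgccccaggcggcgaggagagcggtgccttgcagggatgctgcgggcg
TAP1: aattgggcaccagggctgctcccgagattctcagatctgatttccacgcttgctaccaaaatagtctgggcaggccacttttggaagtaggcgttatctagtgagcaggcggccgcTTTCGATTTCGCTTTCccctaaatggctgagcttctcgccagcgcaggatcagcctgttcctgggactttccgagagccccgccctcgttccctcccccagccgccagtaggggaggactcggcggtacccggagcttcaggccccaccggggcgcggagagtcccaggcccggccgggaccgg
PSMB10: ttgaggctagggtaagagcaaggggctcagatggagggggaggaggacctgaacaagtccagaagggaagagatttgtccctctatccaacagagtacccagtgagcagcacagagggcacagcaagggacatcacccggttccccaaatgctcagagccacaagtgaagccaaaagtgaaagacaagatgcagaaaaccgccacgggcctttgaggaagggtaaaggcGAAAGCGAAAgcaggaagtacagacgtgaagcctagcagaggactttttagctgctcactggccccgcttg

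Among the constitutive core genes (13 of 14 measured), the median difference from scrambled siRNA was 0.14 for VEGF-C siRNA and 0.15 for NRP-2 siRNA. The 6 measured alpha subunits, which form the gate of the barrel, had medians of 0.18 and 0.19. PSMA7 read 13.76 and 13.77 with scrambled siRNA, 14.05 and 14.02 with VEGF-C siRNA, and 14.07 and 13.91 with NRP-2 siRNA, and was above scrambled siRNA in both groups without overlap (0.27 and 0.22, SE 0.12). PSMA5 read 11.57 and 11.53, 11.77 and 11.97, and 12.10 and 11.69, also without overlap (0.32 and 0.35, SE 0.18). PSMA1 read 13.62 and 13.49, 13.66 and 13.74, and 13.97 and 13.64, with differences of 0.14 and 0.25 (SE 0.16). PSMA3 had both VEGF-C arrays above both scrambled arrays (0.21, SE 0.15). PSMA2 and PSMA4 overlapped with scrambled siRNA in both groups, with differences of -0.00 and 0.11, and of -0.03 and 0.14.

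The structural beta subunits have no cutting site of their own. PSMB3 read 12.04 and 12.04 with scrambled siRNA, 12.23 and 12.36 with VEGF-C siRNA, and 12.67 and 12.24 with NRP-2 siRNA, and both groups were above the scrambled arrays (0.26 and 0.42, SE 0.18). The higher value with NRP-2 siRNA lay on array 1: leaving out 1 array gave 0.21 to 0.64. PSMB1 read 14.09 and 14.14, 14.16 and 14.23, and 14.31 and 14.28, so that the 3 groups did not overlap, in steps of 0.08 and 0.10 (SE 0.11). PSMB2 had a difference of 0.32 with VEGF-C siRNA, without overlap, and 0.16 with NRP-2 siRNA, with overlap, and read 12.27 and 12.19, 12.58 and 12.52, and 12.59 and 12.19. PSMB4 overlapped throughout (0.05 and 0.09).

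In the 19S particle (14 of 17 subunits measured), all 14 had a difference above 0 with VEGF-C siRNA, against 49.3% of all genes, with a median of 0.20. In 11 of them both VEGF-C arrays were above both scrambled arrays, against 26.8% of all genes. With NRP-2 siRNA 9 of 14 were above 0, against 51.8% of all genes, with a median of 0.16. PSMD14, the lid's metalloprotease that cuts ubiquitin off the substrate, read 12.66 and 12.55 with scrambled siRNA, 13.15 and 13.09 with VEGF-C siRNA, and 13.33 and 12.88 with NRP-2 siRNA. Both knockdown groups lay above the scrambled arrays, with array 1 of the NRP-2 group highest. It was 1.43-fold higher with VEGF-C siRNA (0.51, SE 0.18, limma's adjusted p = 0.304) and 1.41-fold higher with NRP-2 siRNA (0.50, SE 0.18, limma's adjusted p = 0.343). Leaving out 1 array gave 0.46 to 0.57 for the first and 0.28 to 0.72 for the second.

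PSMC3, an ATPase of the ring, read 10.69 and 10.67 with scrambled siRNA, 11.22 and 10.97 with VEGF-C siRNA, and 10.99 and 10.68 with NRP-2 siRNA. It was 1.34-fold higher with VEGF-C siRNA, without overlap (0.42, SE 0.16, limma's unadjusted p = 0.0459, adjusted p = 0.333), and 0.16 higher with NRP-2 siRNA, with overlap only in that the second NRP-2 array lay within the scrambled pair. PSMC2 read 13.46 and 13.41, 13.66 and 13.62, and 13.83 and 13.54, and PSMC1 read 11.77 and 11.72, 11.94 and 11.81, and 12.07 and 11.85, both above scrambled siRNA in both groups. PSMC4 differed by 0.23 (VEGF-C) and -0.01 (NRP-2) from scrambled siRNA, and PSMC6 by 0.05 and -0.07.

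By their brightest probe sets, the other base and lid subunits had differences of at most 0.35 from scrambled siRNA. A second, dimmer probe set of PSMD11 stood 0.93 above scrambled siRNA with NRP-2 siRNA. PSMD2, a scaffold of the base that docks ubiquitin-like domains, read 11.61 and 11.32, 11.93 and 11.70, and 12.09 and 11.54, with differences of 0.35 and 0.35 (SE 0.23). PSMD1, the other large scaffold, had differences of 0.08 and 0.19 and overlapped in both. PSMD4, a ubiquitin receptor, stood 0.10 higher with VEGF-C siRNA, without overlap, and -0.07 with NRP-2 siRNA. Between the knockdowns, 0 of the 6 lid genes had a difference above 0, against 52.7% of all genes, with a median of -0.10. PSMD3, a lid scaffold, read 9.10 and 9.07, 9.30 and 9.31, and 9.14 and 8.94, and both NRP-2 arrays lay below both VEGF-C arrays (-0.26, SE 0.13). PSMD11 stood 0.32 (SE 0.15) and 0.17 above scrambled siRNA, PSMD6 0.20 and 0.17, PSMD8 0.15 and 0.07, and PSMD12 0.04 and -0.07.

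The RefSeq window of PSMD14 (chr2:161308175-161308474, plus strand) is printed for the size of its differences. By brightest probe sets, they were the largest among the 19S subunits in both comparisons with scrambled siRNA. Capitals mark 1 match to the ETS site CCGGAAG and 2 to CCAAT.
PSMD14: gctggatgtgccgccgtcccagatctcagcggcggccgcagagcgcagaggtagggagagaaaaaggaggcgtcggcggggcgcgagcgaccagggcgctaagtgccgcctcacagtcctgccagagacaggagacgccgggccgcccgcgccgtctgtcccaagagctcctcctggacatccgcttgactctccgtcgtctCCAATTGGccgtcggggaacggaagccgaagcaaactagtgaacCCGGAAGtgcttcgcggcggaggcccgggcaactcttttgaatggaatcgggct

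Of the 41 genes, 35 had at least 1 such window in RefSeq. TGANNNNGC matched in 22 of them (62.9%), against 47.1% of 27303 genes with windows of the same length. CCGGAAG matched in 11 (31.4% against 12.2%), CCAAT in 17 (48.6% against 39.7%), TTCNNNGAA in 7 (20% against 9.38%) and the interferon regulatory element in 6 (17.1% against 4.38%), namely PSMA4, PSMB4, PSMB8, PSMB10, PSME1 and PSMG4. Both strands were searched, a gene with several windows counted if any held a match, and a match is no evidence that a factor binds there.

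**Figure D3:**
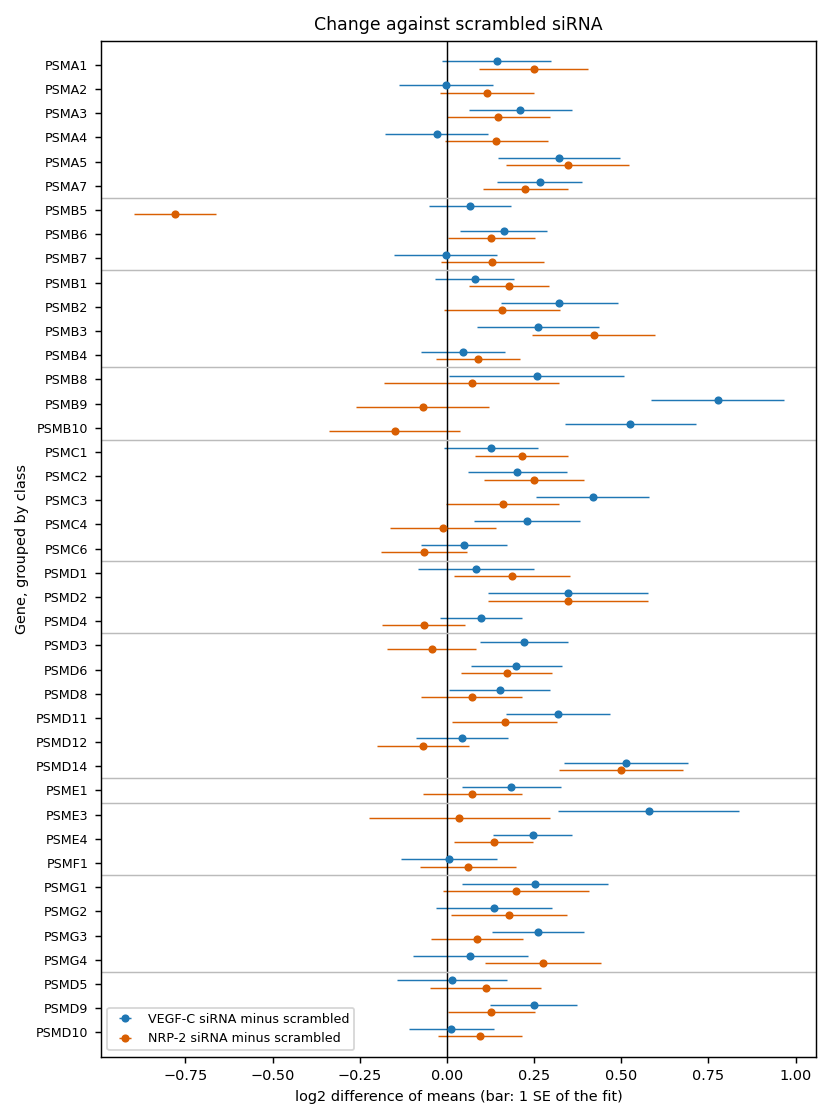
Points are log2 differences of means from scrambled siRNA for each proteasome gene, by class, with bars of 1 SE of the fit. VEGF-C siRNA is blue and NRP-2 siRNA orange, and the 2 comparisons share the scrambled arrays. PSMB5 at -0.78 with NRP-2 siRNA is the point farthest left, and PSMB9 at 0.78 with VEGF-C siRNA the farthest right.

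The activators bind the ends of the core in place of the 19S particle. PSME3, the nuclear activator PA28 gamma, read 9.05 and 8.57 with scrambled siRNA, 9.41 and 9.38 with VEGF-C siRNA, and 9.15 and 8.55 with NRP-2 siRNA. The VEGF-C arrays lay above the other 4 (0.58, SE 0.26), while scrambled array 2 and NRP-2 array 2 were lowest. The same 2 arrays were the lowest for the median of the mitotic genes, whose part in this difference was not tested. PSME4, the activator PA200, read 10.25 and 10.31, 10.56 and 10.49, and 10.42 and 10.40, so the groups did not overlap (0.25 and 0.13, SE 0.11). PSMF1, the inhibitor PI31, overlapped throughout (0.01 and 0.06, SE 0.14).

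The assembly factors build the core and the base. Of the 4 measured chaperones of the core, PSMG3 read 10.72 and 10.79, 11.01 and 11.03, and 10.96 and 10.73, and was above scrambled siRNA only on the VEGF-C arrays without overlap (0.26, SE 0.13). PSMG4 read 11.90 and 11.80, 12.07 and 11.77, and 12.26 and 12.00, and did not overlap with scrambled siRNA only with NRP-2 siRNA (0.28, SE 0.17). PSMG1 and PSMG2 stood 0.25 and 0.14 higher with VEGF-C siRNA, without overlap, and 0.20 and 0.18 with NRP-2 siRNA, with overlap. Of the 3 chaperones of the base, PSMD9 read 11.14 and 11.14, 11.29 and 11.48, and 11.28 and 11.25 and was above scrambled siRNA in both groups (0.25 and 0.13, SE 0.12). PSMD10, also known as gankyrin, stood at 0.01 and 0.09, and PSMD5 at 0.01 and 0.11.

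**Figure D4:**
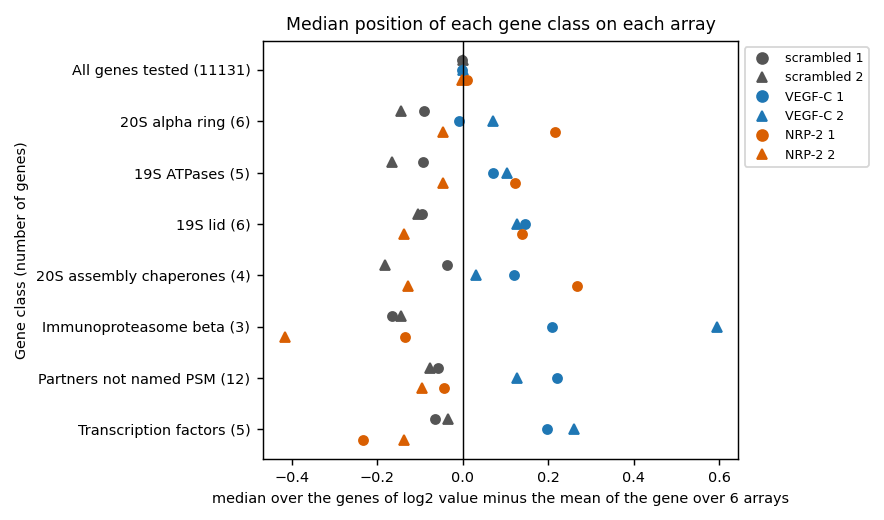
Each symbol is the median, over the genes of a class, of the log2 value minus the gene's mean over 6 arrays, on 1 array. VEGF-C arrays lie to the right of the scrambled arrays in every class drawn other than all genes, NRP-2 arrays 1 and 2 lie apart in most, and the median of all 11131 genes stays near 0.

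Among the 18 genes with several probe sets past the filter, all probe sets had the same direction in 11 genes for VEGF-C against scrambled siRNA, 13 for NRP-2 against scrambled siRNA and 12 for NRP-2 against VEGF-C siRNA. PSMD11, described above by its brightest probe set, had a second, dim one (mean 6.23) with differences of -0.06, 0.93 and 0.99 in these comparisons. The second probe sets of PSMD9 (mean 4.98; -0.02, 0.68 and 0.71) and PSMA5 (mean 6.67; -0.29, 0.45 and 0.74) also departed from the brightest ones. For PSME3 the 4 probe sets gave 0.58, 0.53, 0.02 and -0.16 with VEGF-C siRNA. PSMC2 and PSME4 had further probe sets below 0 with VEGF-C siRNA (-0.01 and -0.06, and -0.12 and -0.05), and PSMD12, PSMB2 and PSMF1 differed in sign between probe sets in at least 1 comparison. PSMB5 rested on a single probe set.

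Proteins that work with the proteasome under other names were read the same way. Of 12 such partners, all measured and 0 called, 10 were above 0 with VEGF-C siRNA (median 0.20, against 49.3% of all genes above 0). For NRP-2 against scrambled siRNA 7 were above 0 (median 0.0088), close to the 51.8% of all genes, and for NRP-2 against VEGF-C siRNA 2 were (median -0.26), against 52.7%. PITHD1, a proteasome-associated protein, read 10.92 and 10.94, 11.53 and 11.45, and 11.14 and 11.14, so its groups did not overlap (0.56 with VEGF-C siRNA, SE 0.11, limma's adjusted p = 0.220). AKIRIN2, which carries proteasomes into the nucleus, read 10.88 and 10.70, 11.20 and 11.13, and 10.70 and 10.77, highest on the VEGF-C arrays (0.37, and -0.43 for NRP-2 minus VEGF-C). PAAF1, a chaperone of the 19S base, differed by 0.20, -0.13 and -0.34 in the 3 comparisons.

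Regulators of proteasome gene transcription (5 of 6 measured, 0 called) had medians of 0.19, -0.12 and -0.38 in the 3 comparisons, and in all 5 both NRP-2 arrays lay below both VEGF-C arrays, against 22.4% of all genes. NFE2L1, the factor NRF1, read 11.83 and 11.74 with scrambled siRNA, 11.86 and 11.99 with VEGF-C siRNA, and 11.36 and 11.58 with NRP-2 siRNA, with the NRP-2 arrays below the other 4 (-0.32 against scrambled and -0.45 against VEGF-C siRNA, limma's adjusted p = 0.198 for the latter). MAFF, a small MAF protein that pairs with NRF factors, read 12.83 and 12.91, 13.14 and 13.28, and 12.69 and 12.80, with 0.34 for VEGF-C siRNA and -0.46 for NRP-2 minus VEGF-C siRNA (limma's adjusted p = 0.169). NFE2L2, the factor NRF2, read 12.90 and 12.88, 13.24 and 13.17, and 12.89 and 13.02 and was highest on the VEGF-C arrays (0.32).

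**Figure D5:**
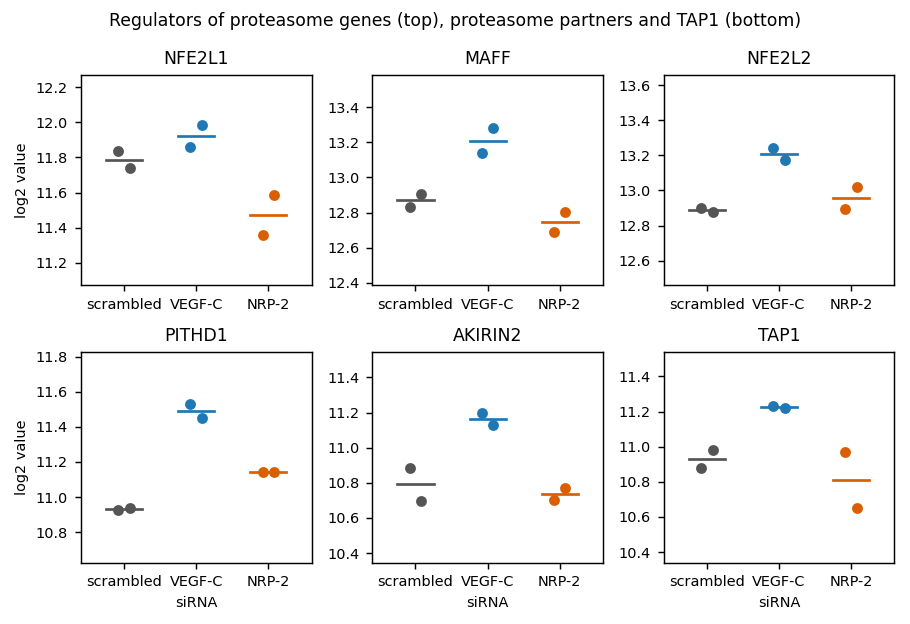
Points are the log2 values of single arrays and lines the means of 2 arrays, by siRNA. Each panel spans 1.2 log2 units. NFE2L1 is lower on both NRP-2 arrays than on the other 4, and MAFF, NFE2L2, PITHD1, AKIRIN2 and TAP1 are higher on both VEGF-C arrays than on the other 4.

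The steps before the proteasome were covered by 3 short lists. Shuttle receptors, which carry ubiquitinated proteins to the proteasome (5 of 7 measured), had medians of 0.15, -0.18 and -0.29 in the 3 comparisons. UBQLN4 differed by 0.34 with VEGF-C siRNA, and UBQLN2 by -0.29 (VEGF-C) and -0.36 (NRP-2) from scrambled siRNA. The segregase p97 and its cofactors, which extract ubiquitinated proteins from complexes (8 of 8 measured), had medians of 0.11, 0.18 and -0.07. UBXN1 differed by 0.15, -0.39 and -0.54, and NPLOC4 by -0.10, 0.33 and 0.43. Ubiquitin genes and ubiquitin-activating enzymes (3 of 6 measured) had medians of -0.08, 0.02 and 0.12, with UBA1, the main activating enzyme, at -0.24 with VEGF-C siRNA. None of the genes in these 3 lists was called (0%).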

How the data were processed

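Total RNA of 6 PC3 samples was measured on arrays. Log2 values of each probe set were deposited by the authors. The submitters' processing notes name Partek and GCRMA, with versions and settings not given in the sources used here. The GCRMA method corrects background by probe sequence, normalizes the arrays and summarises each probe set. It can distort values near the floor, so the sizes of fold changes of dim genes are uncertain. The deposited log2 values ran from 0.82 to 16.32. The number of arrays limits the precision.

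Probe sets with 1 gene in the 2016 platform annotation were kept if their mean was at least log2 4. The brightest represented each of 11131 genes. Groups came from the sample labels. The tests used limma 3.58.1 and R 4.3.3 (two-sided, all 6 arrays in 1 fit, 3 residual and 2.46 prior degrees of freedom), and p-values were adjusted by Benjamini-Hochberg over all 11131 genes. An exact permutation test of 2 against 2 arrays cannot go below p = 0.333 and was not used. The procedure was tested on simulated data with independent noise and with changes larger than those of the proteasome genes. That test does not cover smaller changes or shifts that many genes of an array share.

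Values on every array were given for the catalytic, immunoproteasome and PA28 subunits. Up to 3 genes of each class with the smallest unadjusted p were named, most with values on every array. Of these, PSMD11, PSMD10, PSMD5, PSMD4, PSMD1, PSMG1 and PSMF1 were given by their differences only. Genes whose probe sets differed in direction were named, with up to 3 genes of each other list. Some further members were named to account for all. ERAP2, NLRC5 and TAPBP were named because they were lower with VEGF-C than with scrambled siRNA. The members and lists were chosen with earlier results of these data known. Alternatives covered the filter, normalization, choice of probe sets, variance prior, arrays in the fit, replicate block and leaving out each array.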

Additional observations from a re-analysis of the deposited data

Results flagged for a closer look

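Probe sets that the annotation assigns to several genes entered no comparison above. PRORP and PSMA6, an alpha subunit of the core, share 2 probe sets. The brighter read 14.25 and 14.24 with scrambled siRNA, 14.53 and 14.60 with VEGF-C siRNA, and 14.59 and 14.34 with NRP-2 siRNA. It was above both scrambled arrays in both groups, by 0.32 (VEGF-C siRNA) and 0.22 (NRP-2 siRNA) on the log2 scale. The dimmer one (mean 10.32) differed from it in sign, at -0.10 and -0.03, with overlapping arrays. C7orf25 and PSMA2 also share 2 probe sets. The dimmer of them read 8.38 and 8.58, 8.58 and 8.72, and 8.38 and 8.24, with differences of 0.17 (VEGF-C siRNA) and -0.17 (NRP-2 siRNA). The brighter one (mean 8.76) gave 0.09 and -0.17. Which of the named genes gave these signals was not tested.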

How the results depend on the processing

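No proteasome gene was called in any comparison under any setting (0 throughout). Leaving out 1 array gave medians from 0.14 to 0.21 for VEGF-C against scrambled siRNA, from 0.0064 to 0.27 for NRP-2 against scrambled siRNA and from -0.13 to 0.0695 for NRP-2 against VEGF-C siRNA. The last of these turned in sign, to 0.0695 without NRP-2 array 2. Numbers of genes above 0 then ran from 36 to 40, from 21 to 36 and from 6 to 25, and numbers at an unadjusted p under 0.05 from 1 to 6, from 1 to 7 and from 2 to 5. These fits assume that the lone array of a group varies like the other groups.

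The choice of probe sets also moved the median for VEGF-C against scrambled siRNA, from 0.199 for the brightest probe sets. It was 0.143 with every probe set as its own row and 0.135 with the mean of all probe sets. With every probe set as its own row (69 for proteasome genes), 52 were above 0 for NRP-2 against scrambled siRNA and 34 for NRP-2 against VEGF-C siRNA. Of these rows, 30 and 27 had arrays that do not overlap, and 5 and 7 had an unadjusted p under 0.05. The 5 were 4 higher and 1 lower, and the 7 were 4 higher and 3 lower. With the mean of all probe sets, 7 and 7 genes had such a p (6 higher and 1 lower, 4 higher and 3 lower), and 17 had arrays that do not overlap for NRP-2 against VEGF-C siRNA (7 higher and 10 lower). With no filter these p counts were 9, 5 and 5 in the 3 comparisons. For NRP-2 against scrambled siRNA, an intensity trend gave 4 genes and a fit of only the 2 groups gave 1. The cause was not tested. The counts of genes above 0 and of arrays that do not overlap were added after seeing the data. Counts over all genes at an unadjusted p, above 0 or without overlap were not taken under the alternative settings. The counts of proteasome genes under them therefore stand without a background.

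Over all genes tested, deviations from the group mean were correlated between arrays of the same number. The correlation was 0.11 for scrambled and VEGF-C, 0.58 for scrambled and NRP-2 and 0.12 for VEGF-C and NRP-2 arrays. Thus scrambled and NRP-2 arrays shared part of their difference between arrays 1 and 2, but 2 pairs a comparison do not establish pairing. The p-values above come from a fit without the replicate number. With the replicate number as a block, the medians were 0.20, 0.13 and -0.04, with 5, 2 and 4 genes at an unadjusted p under 0.05 and 0 called. Of single-gene values, 63 of 936 changed sign on leaving out 1 array, and 16 of 1404 under other alternatives. Both totals include values that could not change, so these shares understate how often signs turned. Such values come from leaving out an array of the group not compared. They also come from settings that leave a gene's difference as it was, such as another filter or variance prior.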
